A study of Mus musculus with 2 samples.

Results

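The 10 genes described here are the immediate early AP-1 and EGR genes of the mouse: Fos, Fosb, Fosl1 and Fosl2 of the FOS family, Jun, Junb and Jund of the JUN family, and Egr1, Ier2 and Atf3. They were chosen by name, each symbol matched 1 row of the gene tables, and all 10 were found among 43346 genes. The tables come from G1E, an immortalised male C57BL/6J line of erythroid progenitors (postnatal, 0 day) that is labelled Gata1-, GATA1 being a factor that red cell precursors need to mature. Each of 2 libraries, labelled as biological replicates, was made from 1 ng of total RNA above 200 nucleotides in size. Both belong to 1 group, for which the labels name no treatment, and no stimulated cells were compared here.

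FOS proteins bind DNA chiefly as heterodimers with JUN proteins, while JUN proteins can also pair with each other, and these dimers form the AP-1 transcription factor. EGR1 is a zinc finger factor of the same early response. Growth factors and stress switch many, but not all, of these genes on within minutes without new protein synthesis. The signal runs through the ERK, JNK and p38 kinases, which act on promoter-bound SRF, its TCF partners and CREB. Most of the mRNAs are then destroyed quickly through AU-rich elements in their 3′ untranslated regions.

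The promoter sequences of Fos, Junb and Jun are shown because these genes lay at 3 different levels in G1E cells: Junb was expressed, Fos was low and Jun was close to 0. The 150 bases before the RefSeq start (GRCm38.p6) were read for each, 5′ to 3′ on the gene's strand. Capitals mark matches to the motifs searched on either strand, which were TGACGT (the core of a CREB site), TGACNTCA (an AP-1 or CREB site with 8 positions), TGANTCA (an AP-1 site), the CArG box that SRF binds, the TATA box letters TATAAA, the CCAAT box of many promoters and, as a GATA site, GATAAG. The first of these can overlap with the second.

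Fos, chr12:85473740-85473889, plus strand: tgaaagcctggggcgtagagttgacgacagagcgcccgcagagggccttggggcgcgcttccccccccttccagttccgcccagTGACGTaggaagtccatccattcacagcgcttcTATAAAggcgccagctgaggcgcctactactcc
Junb, chr8:84978749-84978898, minus strand: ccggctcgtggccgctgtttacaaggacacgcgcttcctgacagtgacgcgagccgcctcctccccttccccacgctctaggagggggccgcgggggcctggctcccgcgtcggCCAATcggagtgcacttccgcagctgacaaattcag
Jun, chr4:95052223-95052372, minus strand: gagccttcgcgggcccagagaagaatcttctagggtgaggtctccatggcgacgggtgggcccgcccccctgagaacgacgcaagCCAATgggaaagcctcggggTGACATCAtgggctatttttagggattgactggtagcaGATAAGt

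The Fos window held TGACGT from 66 to 61 bases before the start and TATAAA from 33 to 28 bases before it. The Jun window held CCAAT, TGACATCA from 45 to 38 bases before the start, and GATAAG close to the start. The Junb window held CCAAT only. Of 32851 promoters of the same length, 5.15% held TGACGT, 5.70% TGACNTCA, 4.24% TGANTCA, 0.916% a CArG box, 7.57% TATAAA, 24.5% CCAAT and 3.75% GATAAG. Bases farther upstream were not searched, so a motif missing here, such as the CArG box, may lie outside the window. Matches are of letters only, and binding was not measured. Of the 7 members with a RefSeq promoter used here, Atf3 also held TGACGT, on the reverse strand, while Fosb, Fosl2 and Jund held none of these letters in this window. The RefSeq start lay 30 bases from the nearest GENCODE M21 start of a quantified transcript for Junb and at the same base for Fos and Jun. It lay 671 bases away for Fosl2 and 1210 bases away for Jund, so their windows are not the bases before that M21 start. The deposited models of these genes had other lengths (5855 bases against 6537 in M21 for Fosl2, 2878 against 1668 for Jund). Their own starts were not compared with the RefSeq start.

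The AU-rich nonamer TTATTTATT, a signal for mRNA decay, was found in the 3′ untranslated regions of 2 of the 10 members, Fos and Fosl2, and in 7.66% of 21037 genes. These regions were 815 bases long in Fos and 4653 in Fosl2, against a median of 960 over all genes, and length was not accounted for. Both sites are shown within 30 bases (GRCm38), with the nonamer in capitals.

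Fos, chr12:85477103-85477132, plus strand: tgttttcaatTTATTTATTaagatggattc
Fosl2, chr5:32156871-32156900, plus strand: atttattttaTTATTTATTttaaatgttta

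The shorter core ATTTA occurred in 9 of the 10 members against 65.2% of genes. Its density was 4.91 per kb in Fos, 4.12 in Junb, 3.24 in Jun and 2.53 in Atf3, against a median of 1.24 over all genes, and 8 members lay above that median. Fosb lay below that median at 0.434 per kb, and Ier2 had none in its 755 bases. These are letter matches, and mRNA decay was not measured.

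Estimated counts summed to 31649878 and 40597614 in the libraries, so that a count of 0 allowed up to 0.0948 and 0.0739 CPM. Levels are given in TPM, estimated transcripts per length of gene model scaled to a fixed sum in each library. Nuclear protein-coding genes summed to 202623 TPM in replicate 1 and 130348 TPM in replicate 2, of 999964 and 999497 TPM over all genes. Most of the fixed sum thus lay on other genes, to an unequal extent, and TPM levels are to be read against that. Among genes at 1 TPM or more in both libraries, the median ratio of TPM in replicate 1 over replicate 2 was 1.55, and this shift enters every SD of TPM given here. Gata1 was read at 21.96 and 12.51 TPM and Gata2 at 52.8 and 29.5 TPM, and since the files do not say which part of Gata1 was altered, its reads do not check the label. All 11 erythroid markers were detected, and Kit, the stem cell factor receptor, had 175 and 115 TPM. Slc4a1 (101-fold), Hba-a1 (8.55-fold, with a near-identical copy that may share its reads) and Alas2 (8.30-fold), genes of maturing red cells, were higher in replicate 2 by the library test described with the ratios, and their part in the values below was not tested. In RNA from whole cultures, fewer cells of a type and less RNA per cell cannot be told apart. All 4 lymphocyte markers and 4 of 6 fibroblast and endothelial markers had 0 counts. Of 6 macrophage and monocyte markers, Csf1r, Cd14 and Mpeg1 were at 0 and the list summed to 21.4 and 10.9 TPM, nearly all of it Spi1; Adgre1 (1 and 15 counts) was higher in replicate 2 and Cd68 (17 and 1) in replicate 1 by that test. The 4 megakaryocyte markers summed to 22.3 and 14.5 TPM, with Gp1ba (32 and 10 counts) higher in replicate 1. None of the calls of Adgre1, Cd68 and Gp1ba was made by a negative binomial exact test. That test took its dispersion from the same 2 libraries, so the difference under test counted as noise and a missing call decides nothing. By the library test, 5.12% and 2.2% of all tested genes passed as higher in replicate 2 and in replicate 1. Of the 4 mast cell markers, Cpa3 held 51.4 and 24.8 TPM of a sum of 51.7 and 25.1 TPM, while Ms4a2 (8 and 10 counts) and Fcer1a (0 and 2) were near 0 and Mcpt4 was at 0.

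Egr1, Ier2, Jund, Junb and Fos were detected, at 1 TPM or more in both libraries, and the other 5 members were not. This is 50% of the members, against 38.9% of 21461 nuclear protein-coding genes and 21.1% of all genes. The median over the 10 members was 0.915 TPM, against 0.025 TPM over nuclear protein-coding genes. Levels ran from 36.8 TPM for Egr1 down to 0.020 TPM for Fosb.

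**Figure D1:**
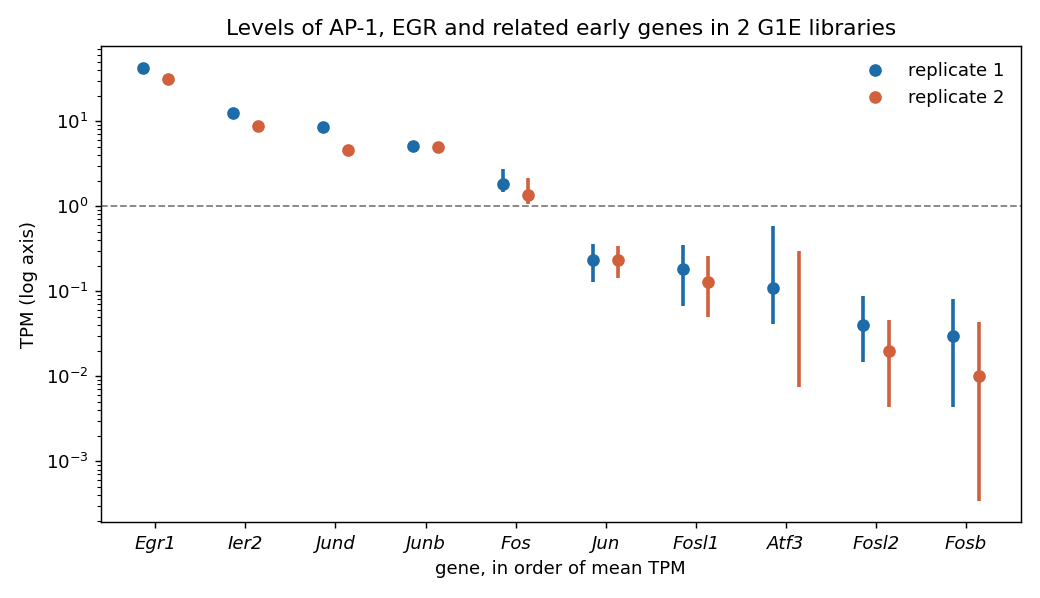
Level of each member in TPM (log axis) in replicate 1 and replicate 2, ordered by mean TPM; points are deposited TPM values, vertical lines the deposited credibility intervals, and the dashed line 1 TPM. Atf3 has no point in replicate 2, where it was at 0, and 5 members lie above the dashed line in both libraries.

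Egr1, the zinc finger factor, was the most abundant member. Egr1 (ENSMUSG00000038418.7, chromosome 18, 34859823 to 34864984, plus strand, GRCm38) had 42.4 TPM in replicate 1 and 31.1 TPM in replicate 2, from 2824 and 2746 counts (36.8 ± 7.95, SD, n = 2). It lay above 96.2% and 96.8% of nuclear protein-coding genes in the libraries. The other EGR genes Egr2, Egr3 and Egr4 had 0 counts in both. Ier2 (ENSMUSG00000053560.4, chromosome 8, 84661331 to 84662852), an early response gene whose product is a nuclear protein, followed with 12.6 and 8.71 TPM from 377 and 358 counts (10.7 ± 2.76, SD, n = 2). Egr1 was 3.36-fold and 3.57-fold above Ier2, and their credibility intervals were apart in both libraries.

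The JUN family was carried by Jund and Junb, while Jun, its founding member, was close to 0. Jund (ENSMUSG00000071076.5, chromosome 8, 70698949 to 70700616) had 8.49 and 4.53 TPM from 498 and 367 counts (6.51 ± 2.80, SD, n = 2). Junb (ENSMUSG00000052837.5, chromosome 8, 84974484 to 84978718) had 5.13 and 4.97 TPM from 188 and 251 counts (5.05 ± 0.113, SD, n = 2). Jun (ENSMUSG00000052684.4, chromosome 4, 95049034 to 95052222) had 0.23 TPM in each library, from 15 and 21 counts. Jund was thus above Junb in replicate 1 and slightly below it in replicate 2, and Jun was far below both in each library.

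As shares of the summed JUN family TPM, Jund took 61.3% and 46.6% and Junb 37.0% and 51.1%. Jun took 1.66% and 2.36%. Jund thus held the larger share in replicate 1, while in replicate 2 the credibility intervals of Jund and Junb overlapped. These shares depend on the gene length used: the deposited Jund model was 2878 bases long, against 1668 in the later GENCODE M21, and those of Junb were 1840 and 1809. As shares of CPM, which disregards length, Jund led in both libraries with 71.0% and 57.4% of the family.

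**Figure D2:**
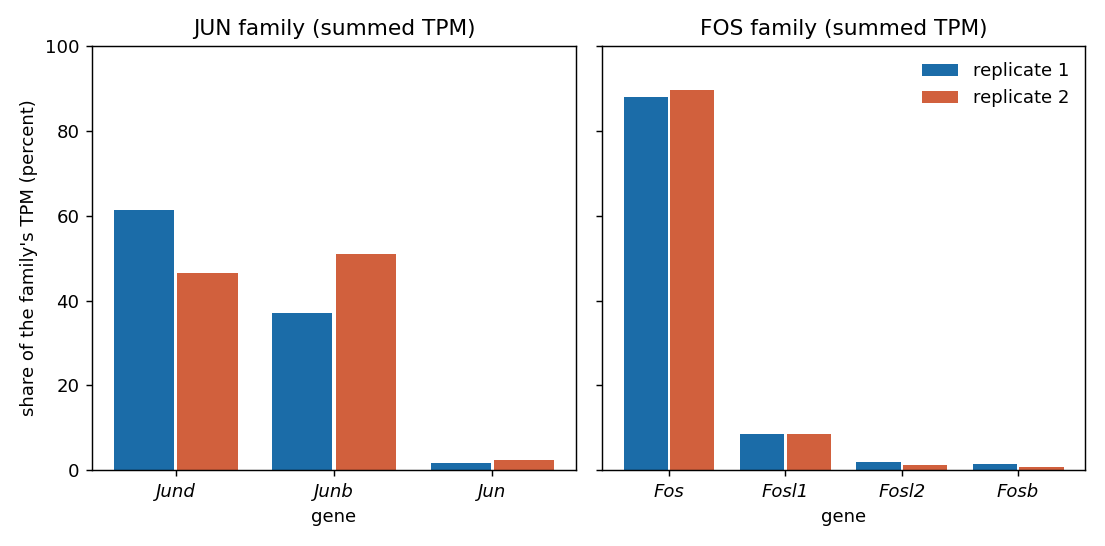
Share (percent) of the summed JUN family TPM on Jund, Junb and Jun, and of the summed FOS family TPM on Fos, Fosl1, Fosl2 and Fosb, with 1 bar per library. Jund holds 61.3% of the JUN family in replicate 1 and 46.6% in replicate 2, while Fos holds 88.0% and 89.5% of the FOS family.

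The FOS family was low and consisted mostly of Fos. Fos (ENSMUSG00000021250.9, chromosome 12, 85473890 to 85477273) had 1.83 and 1.37 TPM from 51 and 46 counts (1.60 ± 0.325, SD, n = 2), which was 88.0% and 89.5% of the summed FOS family TPM. As a share of CPM, which disregards length, it was 79.7% and 82.1%. Fosl1, which encodes FRA-1, had 0.18 and 0.13 TPM from 6 counts in each library. Fosl2, which encodes FRA-2, had 0.04 and 0.02 TPM from 5 and 3 counts, and Fosb had 0.03 and 0.01 TPM from 2 counts and 1. These 3 genes were thus seen in a handful of reads per library, and in replicate 1 their credibility intervals overlapped. In replicate 2 the interval of Fosl1 (0.0501 to 0.256 TPM) lay above those of Fosl2 (0.00435 to 0.0460) and Fosb (0.000345 to 0.0431). The JUN family sum was 13.9 and 9.73 TPM against 2.08 and 1.53 TPM for the FOS family, a 6.66-fold and 6.36-fold excess (6.51 ± 0.212, SD, n = 2). By CPM, an alternative chosen after seeing the data that disregards length, the excess was 11.0-fold and 11.4-fold.

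Atf3, a stress-induced factor that can pair with JUN proteins, had 2 counts in replicate 1 (0.11 TPM) and 0 in replicate 2. Its deposited credibility intervals were 0.0414 to 0.578 and 0.00738 to 0.294 TPM.

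In the order of mean TPM, 4 neighbouring pairs had credibility intervals apart in both libraries: Egr1 above Ier2, Ier2 above Jund, Junb above Fos and Fos above Jun. The order of Ier2 and Jund depends on the deposited gene lengths. By CPM, which disregards length, Jund was above Ier2 in both libraries (15.7 and 9.04 against 11.9 and 8.82 CPM). Jund and Junb were apart in replicate 1 only. From Jun downwards, through Fosl1, Atf3, Fosl2 and Fosb, no neighbouring pair was apart in either library.

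Between the libraries, none of the 7 members that could be tested passed the 2-fold limit, except when libraries were scaled to spike-in totals. The ratio of replicate 2 over replicate 1 was taken after TMM scaling, a normalisation that centres most genes on a ratio of 1, and an exact binomial test set it against counting error. Of 7 members with at least 10 counts over both libraries, 0 passed at an adjusted p under 0.05 with at least a 2-fold ratio, while by that rule 5.12% of 11902 tested genes passed as higher in replicate 2 and 2.2% as higher in replicate 1. A negative binomial exact test with the same fold limit also called 0 members. Its largest member ratio, 1.57 for Jun, was under 2-fold, so its p-values could not change that count. Scaled to spike-in totals (514 and 10351 counts), all 7 passed as higher in replicate 1, as did 11608 of the 11902 tested genes. This scaling moves the log2 ratio of every gene by -4.50, while total counts move it by -0.53. Fosl2, Fosb and Atf3 had too few counts to be tested. The test compares these libraries, not conditions, and covers counting error only.

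Without the fold limit, Junb and Egr1 passed as higher in replicate 2 and Jund as higher in replicate 1, where 17.5% and 14.9% of all tested genes passed in these directions. Junb had a ratio of 1.5 (95% Clopper-Pearson interval 1.24 to 1.82, exact binomial test, adjusted p = 0.000207), which turned to 0.0663 when scaled to spike-in totals. Egr1 had a ratio of 1.09 (1.04 to 1.15, adjusted p = 0.00543 in the exact binomial test), which turned to 0.758 with total counts and 0.0483 with spike-in totals. Jund was lower, with a ratio of 0.828 (0.721 to 0.949, adjusted p = 0.0240 in the same exact test). The intervals of Junb and Jund were apart, and Jund was below 1 under every scaling tried. The negative binomial test was used with the fold limit only, so these calls were not set against it.

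The remaining tested members had intervals that included 1. Ier2 had a ratio of 1.07 (0.920 to 1.24), Fos 1.01 (0.665 to 1.54), Jun 1.57 (0.773 to 3.28) and Fosl1 1.12 (0.300 to 4.2). The intervals of Jun and Fosl1 reach past 2-fold, so a difference of that size lies within their counting error. The median log2 ratio of the 7 tested members was 0.13, against 0.01 over all tested genes. With libraries scaled to total counts, the ratios of Egr1, Ier2, Fos and Fosl1 fell below 1 (0.703 to 0.780).

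**Figure D3:**
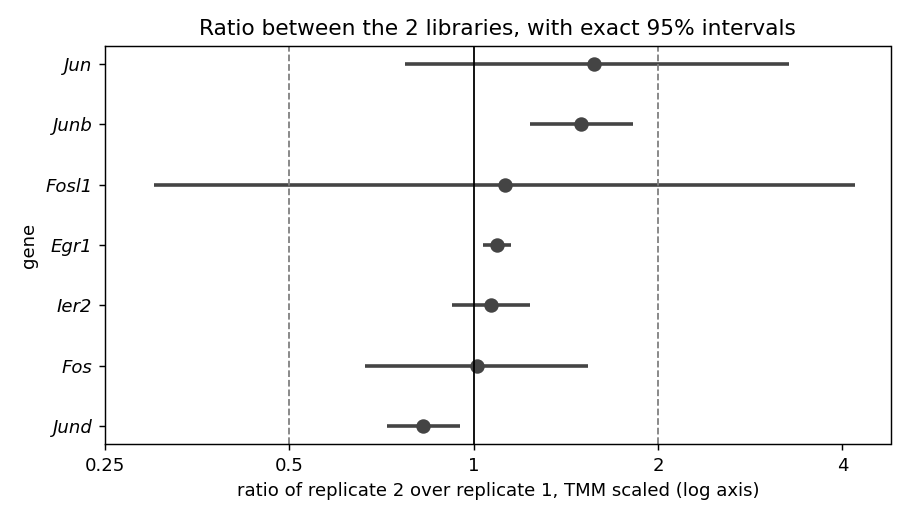
Ratio of replicate 2 over replicate 1 after TMM scaling (log axis) for the 7 tested members, with exact 95% intervals; the solid line marks 1 and the dashed lines 2-fold. Junb lies right of 1 with an interval of 1.24 to 1.82, Jund lies left of it with 0.721 to 0.949, and the intervals of Jun and Fosl1 cross a dashed line.

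Egr1 was split between a shorter annotated transcript of 3036 bases and a longer one of 4484 bases, whose balance differed between the libraries. Both have the same coding bases, and the longer one differs mainly by 1384 non-coding exonic bases upstream, at 34859823 to 34861206 of chromosome 18. The shorter transcript had 35.95 and 29.25 TPM, from 2228 and 2505 estimated counts. The longer one had 6.43 and 1.88 TPM, from 596 and 241 estimated counts, with credibility intervals of 4.97 to 7.39 and 1.43 to 2.31 that did not overlap. The share of Egr1 TPM on the longer transcript was thus 15.2% in replicate 1 and 6.03% in replicate 2 (10.6% ± 6.46, SD, n = 2). Reads that fit both were divided by the authors' estimate.

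Fos was split between its coding transcript of 2108 bases and a processed transcript of 795 bases annotated without a coding sequence. The coding transcript held 48.3% and 36.1% of the Fos TPM, at 0.88 and 0.50 TPM. The processed transcript held 51.7% and 59.6%, at 0.94 and 0.82 TPM, although it had the fewer estimated counts (13.7 and 16.2 against 37.4 and 28.9). Their credibility intervals overlapped in each library, so which of them was higher is not resolved. The coding transcript alone was below the 1 TPM limit in both libraries. Its interval in replicate 2 (0.283 to 0.660 TPM) overlapped that of Jun (0.142 to 0.337 TPM). Detection of Fos and its order above Jun thus hold for the gene with its processed transcripts included. The same is true of the FOS family sums, the share of Fos in them and the JUN family excess over them.

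**Figure D4:**
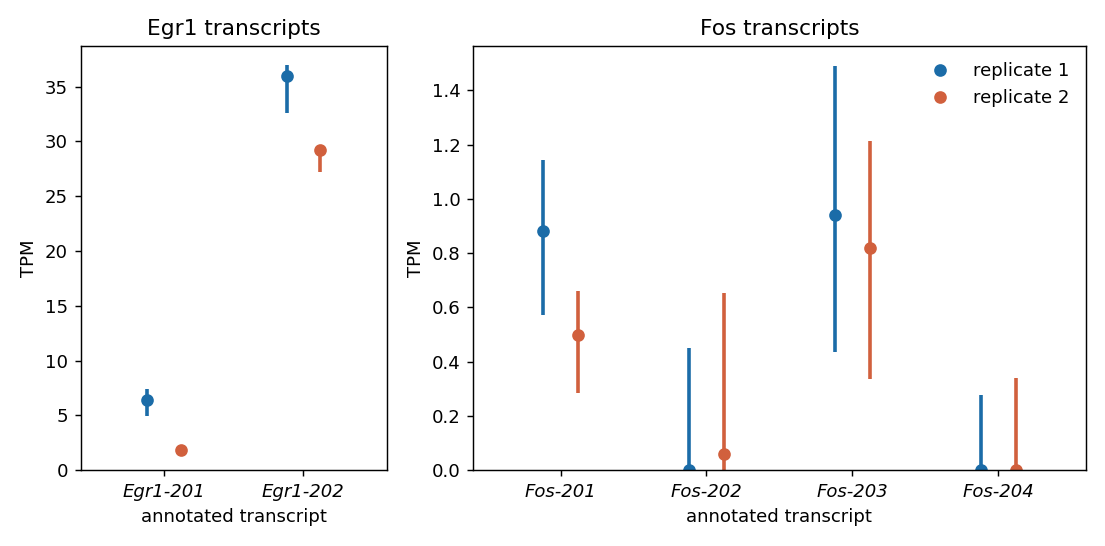
Deposited TPM of each annotated transcript of Egr1 (left) and Fos (right) in replicate 1 and replicate 2; vertical lines are credibility intervals. The longer Egr1 transcript lies at 6.43 TPM in replicate 1 and 1.88 TPM in replicate 2 with intervals that are apart, while those of the coding and the main processed Fos transcript overlap in each library.

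Of the other members, Fosb, Fosl1, Fosl2, Jun, Junb, Jund and Ier2 had a single transcript in the deposited tables. The later GENCODE M21 lists 7 for Fosb, so the others were not resolved here. Opposite-strand genes overlap 5 members in GENCODE M21. Junos, opposite Jun, had 2 and 7 counts and Ccdc85b, opposite Fosl1, 2 and 11. Prdx2 had 728 and 887 counts but meets Junb only through a second Junb transcript of GENCODE M21 that the transcript tables used here do not list. Gm11175, opposite Jund, and Gm24748, opposite Atf3, had 0. The sources used here do not state whether the authors' counting used strand, so reads of these overlapping genes may not be told apart.

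RNA of most kinases and factors known to act on these genes was detected. All 12 genes of the RAS-ERK cascade were detected, with a median of 8.99 TPM, among them the kinase gene Araf (36.1 and 25.4 TPM) and the GTPase gene Nras (18 and 10.9 TPM). Of 8 JNK and p38 genes 6 were detected, led by Map2k4 (22.2 and 12.1 TPM), Mapk14 (14.9 and 8.5 TPM) and Mapk9 (10.6 and 6.40 TPM), and Mapk10 and Map2k6 had 0 counts. Of 9 SRF, TCF and CREB factors 8 were detected, with Elk4 (38.9 and 22.2 TPM), Creb1 (34.1 and 24.0 TPM) and Crem (31.1 and 25.7 TPM) above Srf itself (3.32 and 2.90 TPM, named after its value was seen). None of the tested genes of these 3 lists (12, 6 and 8) passed the test with the 2-fold limit, against 5.12% and 2.2% of all tested genes in the 2 directions. With total counts 1 gene of the SRF, TCF and CREB list passed as higher in replicate 1, as did 1021 of all 11902 tested genes. With spike-in totals all tested genes of the 3 lists passed in that direction, as did 11608 of the 11902.

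The other AP-1 partners listed were divided between abundant and absent. Atf2 (46.0 and 26.9 TPM) and Atf7 (39.2 and 26.8 TPM), which pair with JUN proteins, were each above the whole JUN family sum in both libraries. Batf, Batf2, Batf3 and Jdp2, other partners, had 0 counts. Nab1 (7.25 and 4.70 TPM) and Nab2 (6.60 and 3.83 TPM), which encode corepressors of EGR1, were detected. Among the 8 genes of AU-rich mRNA decay and AP-1 protein turnover all were detected, led by Zfp36l2 (91.2 and 56.0 TPM), Khsrp (58.1 and 37.9 TPM) and Hnrnpd (57.0 and 37.6 TPM).

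**Figure D5:**
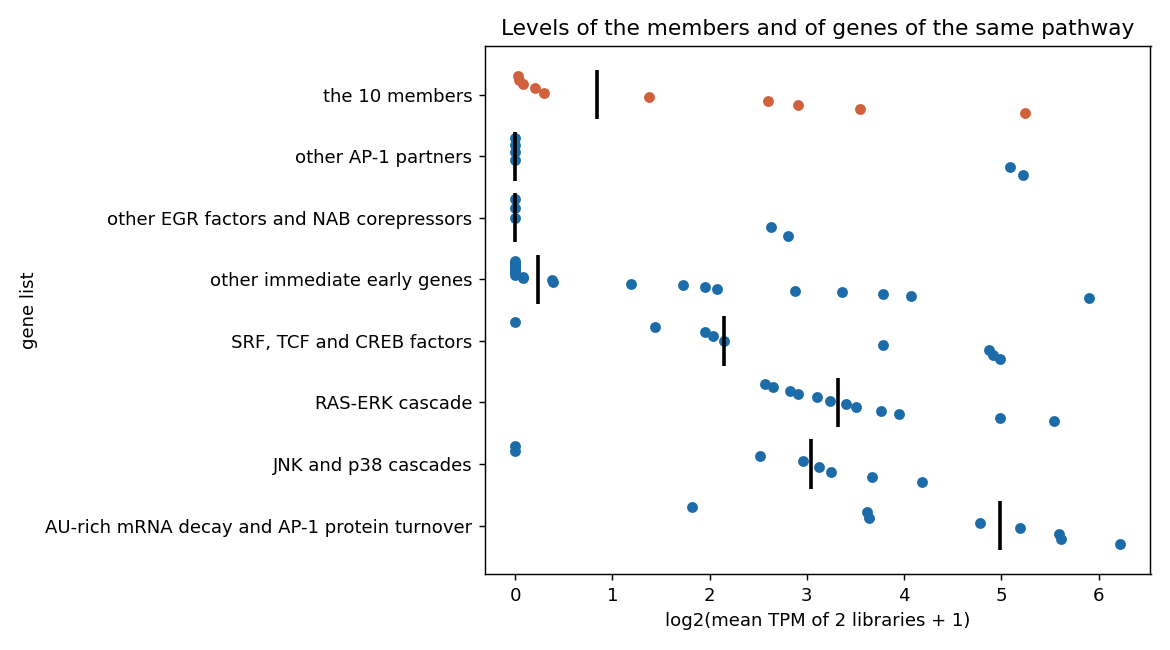
Mean level over 2 libraries, as log2(TPM + 1), of each member (top row) and of each gene of 7 related lists; 1 point is 1 gene and the black line is the list's median. The RAS-ERK list has its median at 8.99 TPM and the decay and turnover list at 30.9 TPM, while the members spread from 0.020 TPM for Fosb to 36.8 TPM for Egr1.

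Of 22 other immediate early genes, 8 were detected and 9 had 0 counts in both libraries. Myc (76.4 and 40.7 TPM), Klf6 (18.6 and 13.2 TPM) and Klf10 (14.8 and 10.8 TPM) led, while Nr4a1, Dusp6, Klf2, Klf4, Arc and Cyr61 were among those at 0. Of 12 tested, 2 passed, where 5.12% of all genes did in that direction, both higher in replicate 2 and both at 0 in replicate 1. Ctgf, a matrix protein gene, had 0 and 40 counts, with an exact lower bound of 11.6 on the ratio, and Npas4, a neuronal early gene, 0 and 11 counts, with a lower bound of 2.82. Of these calls 1 was left with the negative binomial exact test, whose dispersion came from these same libraries. With a count minimum of 100, under which neither gene is tested, 0 were left. Spike-in totals gave 0 in that direction and 10 in the other, where all 11902 tested genes gave 36 and 11608. Of 5 chaperone genes listed to look for handling stress, 3 were tested and 0 passed, against 5.12% and 2.2% of all tested genes. With spike-in totals all 3 passed as higher in replicate 1, as did 11608 of all 11902 tested genes. Hspa8 had 217 and 153 TPM, Dnajb1 12.2 and 7.96 TPM and Hsph1 8.19 and 5.63 TPM. The stress-inducible Hspa1a had 0 counts in both libraries and Hspa1b 3 and 2 counts.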

How the data were processed

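Per the file headers, the gene and transcript tables of the 2 libraries hold the authors' estimated counts, TPM, FPKM, the percent of a gene's TPM on each transcript, and bounds of credibility intervals of TPM (used as a score with no fixed sum). The deposited lengths in bases enter TPM. Per the deposited file records, the assembly was mm10 with GENCODE M4. The sources used here name no aligner or quantifier. GENCODE M21 (GRCm38) gave symbols and positions, matched without version (42462 of 43346 genes, and all 120 list entries, 5 of them through a RefSeq synonym). Promoters came from RefSeq (GRCm38.p6), and 3′ untranslated regions from the M21 transcript with the longest one per gene.

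The exact binomial test, two-sided, was run on rounded counts of the libraries against TMM library sizes (edgeR 4.0.16, R 4.3.3), with Benjamini-Hochberg adjustment over all 11902 genes with at least 10 counts over both. The comparison was checked on simulated data that held counting error only, so that check does not cover variation between libraries. Spike-in entries and 26248 entries named by a number, which held 0.00163% and 0.0255% of counts, stayed out. Other scalings, minimums, estimates and a negative binomial test were run, with DESeq2 1.42.0 size factors, SciPy 1.17.1, pandas 2.3.3 and NumPy 2.4.6. The negative binomial test used a common dispersion, a coefficient of variation of 26.3%, estimated from these 2 libraries as 1 group. The members and gene lists were chosen with earlier results of these data known. Named were all members, Gata1, Gata2, up to 3 genes of highest mean TPM per list and every list gene that passed, except that marker lists are given by their sums and the genes that passed; genes named for being at 0 or for another single value were chosen after their values were seen. For 1 gene under this rule, values are not reported here. No gene was named for a like pattern, since a correlation over 2 libraries is always 1 or -1.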

Additional observations from a re-analysis of the deposited data

How the results depend on the processing

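No member passed the 2-fold rule under TMM, DESeq2 size factors, total counts, TMM over protein-coding genes, posterior mean counts, either count minimum or the negative binomial test. Apart from the lower count minimum, no tested member reached a 2-fold ratio in these settings, so the fold limit alone gave that result. Without the fold limit 2 and 1 members passed (higher in replicate 2 and 1), and scaled to spike-in totals 0 and 7 did. Over all genes the counts higher in replicate 2 and 1 were 609 and 262, 2077 and 1771 without the fold limit, 263 and 33 with the negative binomial test, 396 and 1021 with total counts, 36 and 11608 with spike-in totals, and 225 and 35 with a count minimum of 100. The spike-in amounts were not checked here. Ratios fell below 1 with total counts for Fos (0.703), Fosl1 (0.780), Egr1 (0.758) and Ier2 (0.740). With spike-in totals they were 0.0448 for Fos, 0.0497 for Fosl1, 0.0695 for Jun, 0.0663 for Junb, 0.0483 for Egr1 and 0.0472 for Ier2. From TPM, with no scaling between libraries and a pseudocount of 1 or 0.1, they were 0.837 and 0.762 for Fos, 0.958 and 0.821 for Fosl1, 0.974 and 0.969 for Junb, 0.741 and 0.735 for Egr1, and 0.713 and 0.693 for Ier2; Jund was below 1 in all of these. At a limit of 5 TPM, 2 members were detected. The members' median was 0.635 as FPKM. By CPM, the mean family shares were 33.0% for Junb, 2.71% for Jun and 80.9% for Fos. The JUN family excess over the FOS family was 6.51 by TPM and 11.2 by CPM, the latter chosen after seeing the data. The mean share of the processed Fos transcript was 46.9% by posterior mean. No paired analysis was possible because the labels give 1 group. Leaving out either library changed no count of detected members, and no ratio exists without both. Counts under 10 limit Fosb, Fosl2, Fosl1 and Atf3.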
